A study of Homo sapiens with 12 samples.

Results

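SARM1, an NAD-cleaving enzyme, was examined together with 9 enzymes that make, recycle or divert NAD, in 3 human hepatocellular carcinoma cell lines grown with and without lactate. The 10 genes were taken by symbol out of 62710 genes in the deposited tables: SARM1, NAMPT, NAPRT, NADSYN1, QPRT, NMNAT1, NMNAT2, NMNAT3, NNMT and NMRK1. SARM1 was chosen by its lactate log2 fold changes, which differed between the lines in these same libraries, and the enzymes were added for their place in the pathway. SARM1 values in the lactate contrasts and in the untreated lines are therefore given as a description with no test, and the tests concern the other 9 genes. All 10 genes were among the 18355 genes left after genes with few counts were removed.

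The treated groups were PLC/PRF/5, HLF and SNU475 cells cultured for 24 h with lactic acid at 20 mM lactate, and each was set against control cells of its own line. Each of the 6 groups had 2 libraries, 12 in all, made from total RNA with a directional kit. Library totals ran from 16530000 to 22190000 estimated counts. Separate cultures are not mentioned for the libraries within a group, and the tests therefore weigh differences against a spread that may be technical in part. The 8 hepatocyte markers ALB, APOA1, APOB, TTR, SERPINA1, TF, AFP and HNF4A summed to 3839 to 6111 CPM (counts scaled to TMM library size) in PLC/PRF/5 lactate libraries and to 2859 to 4227 CPM in PLC/PRF/5 control libraries. In HLF and SNU475 they summed to between 3.54 and 7.46 CPM in every library, with 3 to 5 of the 8 at 0 in each group. APOA1, APOB and TTR were at 0 in both of these lines and ALB had at most 2 counts in a group, while SERPINA1 averaged 5.52 CPM in HLF lactate cells and 5.46 CPM in HLF control cells, and HNF4A averaged 4.22 CPM in SNU475 lactate cells and 1.63 CPM in SNU475 control cells. The 4 epithelial markers summed to 3912 to 8407 CPM and the 4 mesenchymal markers to 3328 to 9700 CPM over the 12 libraries, but single markers went different ways. KRT8 and KRT18 made up most of the epithelial sum. CDH1 averaged 127 CPM in PLC/PRF/5, 0.306 CPM in HLF and 3.83 CPM in SNU475 control cells, and EPCAM at most 0.618 CPM in any group. In the same order, VIM averaged 443, 5767 and 5420 CPM, and CDH2 95.9, 426 and 423 CPM. ZEB1 averaged 13.8, 20.0 and 64.8 CPM, while FN1 averaged 3071, 307 and 2160 CPM. The 8 leukocyte and endothelial markers summed to 19.5 to 39.5 CPM in PLC/PRF/5, 140.2 to 197 CPM in HLF and 60.2 to 172 CPM in SNU475. Most of this was CD68, which averaged 20.2, 170 and 73.4 CPM in control cells of these lines. The mitochondrial share of counts differed between the SNU475 libraries, at 8.5% and 13.9% with lactate and 8% and 15.1% in control. In HLF it was 5.49% and 3.93% with lactate, and 9.52% and 3.39% in control, so it differed between the HLF control libraries too, and its part in the HLF values given later was not tested. In PLC/PRF/5 it was 6.21% and 6.56% with lactate, and 7.08% and 6.3% in control.

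NAD is a carrier of electrons and is also used up as a substrate. Liver cells can build it from tryptophan through the kynurenine route, which ends at QPRT, from nicotinic acid through NAPRT, or from nicotinamide through NAMPT. NMRK1 adds a phosphate to nicotinamide riboside. The 3 NMNAT enzymes add the adenylate part to the resulting mononucleotides, and NADSYN1 turns the acid form into NAD. NNMT methylates nicotinamide and so takes it out of the cycle. SARM1 carries a TIR domain that cleaves NAD and is best known for driving the loss of injured axons, where NMNAT2 holds it in check.

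Promoter sequences in the RefSeq table (GRCh38.p14, 250 bases before to 50 bases after the start) were found for 7 of the 10 genes, and those of NAPRT, NNMT and NMRK1 were not used here. The promoters of SARM1 and NMNAT3 are shown because these genes had more counts in PLC/PRF/5 than in HLF by the widest margins of the 10. Both are printed 5′ to 3′ on the gene's own strand, with each CG dinucleotide in capitals. SARM1 lies on the plus strand at chr17:28371444-28371743, and NMNAT3 on the minus strand at chr3:139678001-139678300.
SARM1: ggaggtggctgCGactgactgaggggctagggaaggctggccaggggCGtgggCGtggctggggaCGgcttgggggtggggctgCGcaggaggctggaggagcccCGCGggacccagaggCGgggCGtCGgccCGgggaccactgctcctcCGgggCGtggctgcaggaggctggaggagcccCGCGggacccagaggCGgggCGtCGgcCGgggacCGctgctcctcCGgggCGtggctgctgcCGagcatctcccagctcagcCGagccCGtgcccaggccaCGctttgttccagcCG
NMNAT3: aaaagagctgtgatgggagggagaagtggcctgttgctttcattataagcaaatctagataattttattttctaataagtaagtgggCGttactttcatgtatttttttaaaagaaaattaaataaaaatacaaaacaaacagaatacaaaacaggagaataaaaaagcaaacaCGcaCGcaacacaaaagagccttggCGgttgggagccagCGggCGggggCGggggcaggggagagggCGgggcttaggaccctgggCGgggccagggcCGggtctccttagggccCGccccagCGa
The SARM1 window holds 27 CG dinucleotides and 76.3% G and C. The NMNAT3 window holds 12 CG dinucleotides and 48% G and C. The median over 35116 promoters of the same length was 14 CG dinucleotides, 71.8% of promoters held fewer than the SARM1 window and 46.9% held fewer than the NMNAT3 window. A second NMNAT3 entry, at chr3:139677923-139678222 and not printed, holds 18 CG dinucleotides and 56.3% G and C. Of all promoters, 55.5% held fewer than that entry. The SARM1 window falls inside the annotated span of VTN, a plasma protein gene on the opposite strand (chr17:28367276-28373091 in GENCODE 29). CG content is a description of the windows; methylation was not measured.

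SARM1 was abundant in PLC/PRF/5 and scarce in the other 2 lines, and its lactate effect had opposite signs in them. In PLC/PRF/5, SARM1 had 24.7 and 27.4 CPM in lactate libraries, against 58.6 and 59.3 CPM in control libraries. Both lactate libraries lay below both controls, and the fitted log2 fold change was -1.18 ± 0.22 (SE, 2 against 2 libraries), a level 0.441 times that of control. In HLF, SARM1 had 1.72 and 1.86 CPM with lactate, against 1.04 and 0.896 CPM in control. These groups did not overlap either, and the log2 fold change was 0.88 ± 0.27 (SE), but it rests on 78 against 38 counts summed over the libraries of a group. In SNU475, SARM1 had 0.809 and 0.881 CPM with lactate, against 0.563 and 0.748 CPM in control, with a log2 fold change of 0.36 ± 0.32 (SE) on 26 against 23 counts. The PLC/PRF/5 effect minus the HLF effect was -2.06 ± 0.35 on the log2 scale, and the PLC/PRF/5 effect minus the SNU475 effect was -1.54 ± 0.39. These are the differences for which the gene was chosen. Because the RNA was taken from whole cultures, fewer cells with SARM1 and less SARM1 RNA per cell cannot be told apart.

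Among untreated lines the SARM1 level was 59.0 ± 0.49 CPM in PLC/PRF/5, 0.970 ± 0.10 CPM in HLF and 0.655 ± 0.13 CPM in SNU475 (SD, n = 2 each). PLC/PRF/5 was 60.4-fold above HLF and 89.2-fold above SNU475 in the fit, while HLF and SNU475 lay next to each other at a log2 fold change of 0.56 ± 0.31 (SE). With lactate the order of the lines was the same. On the per-length scale, SARM1 was deposited at 9.0 and 9.43 TPM in PLC/PRF/5 lactate libraries, against 16.6 and 20.4 TPM in PLC/PRF/5 control libraries. TPM of SARM1 in HLF and SNU475 was between 0.07 and 1.55, and the effective length that enters it ran from 508 to 10024 bases between libraries. The fold changes above therefore come from counts. Those on log2 TPM are given only in the section on how the results depend on the processing.

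**Figure D1:**
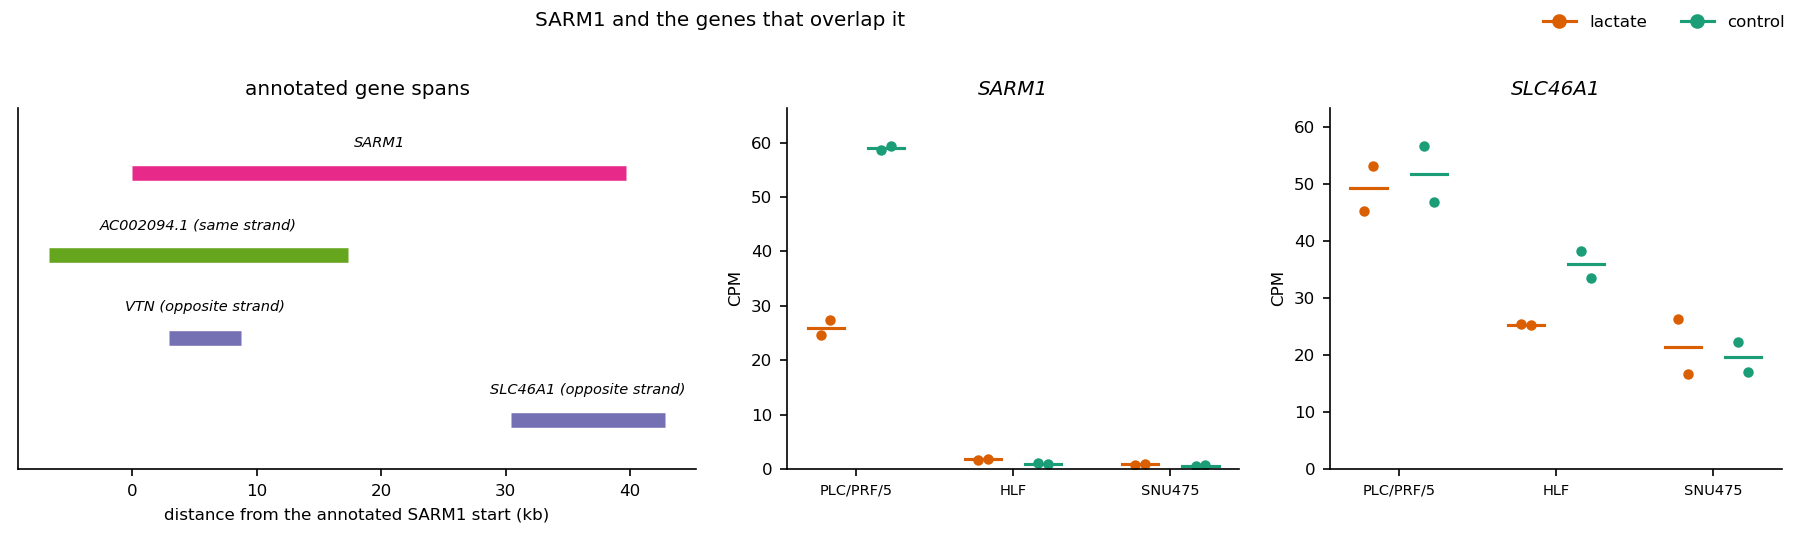
Left, annotated spans of SARM1 and of 3 overlapping genes, in kb from the SARM1 start. Middle and right, CPM of SARM1 and of SLC46A1 in each library (dots, group mean as a line) in lactate and control cells of each line. SARM1 had 24.7 and 27.4 CPM in PLC/PRF/5 lactate libraries, against 58.6 and 59.3 CPM in control libraries, while SLC46A1 overlapped between the same groups.

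SARM1 counts were not independent of its neighbours. SARM1 (ENSG00000004139, chr17:28364356-28404049, plus strand, GENCODE 29) shares 4421 of its 11137 exonic bases with SLC46A1, the intestinal folate transporter gene, which runs on the opposite strand. The estimated counts of SARM1 and of SLC46A1 were fractional in 12 of 12 libraries. Their sum was a whole number within 0.011 in 7 libraries, and in the other 5 the sum became whole once the counts of TMEM199 and of ENSG00000258924 (AC002094.1) were added. Reads in the shared part were thus divided between genes of opposite strands by the estimation, and the strand setting of the counting is not given in the sources used here. SARM1 took 35.2% and 34% of the counts of the SARM1 and SLC46A1 pair in PLC/PRF/5 lactate libraries, against 50.9% and 55.9% in PLC/PRF/5 control libraries. It took between 2.57% and 6.84% in HLF and SNU475 libraries.

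The pair as a whole was lower with lactate in PLC/PRF/5, at 70.0 and 80.5 CPM, against 115 and 106 CPM in control. SLC46A1 alone had 45.3 and 53.1 CPM in PLC/PRF/5 lactate libraries, against 56.6 and 46.9 CPM in control libraries, which overlap. Its log2 fold change there was -0.07 ± 0.24 (SE; edgeR adjusted p = 1). In HLF the pair was also lower, at 27.1 and 27.1 CPM with lactate against 39.3 and 34.4 CPM in control, so SARM1 and SLC46A1 had opposite signs there. The SLC46A1 log2 fold change in HLF was -0.50 ± 0.25 (SE; edgeR adjusted p = 0.822). ENSG00000258924, on the same strand as SARM1 and sharing 495 exonic bases with it, had 21.0 and 6.76 counts in HLF lactate libraries and 0 in both HLF controls. How far the division of reads enters the low SARM1 values of HLF and SNU475 was not tested.

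VTN overlaps SARM1 with 0 shared exonic bases. It had 368 and 432 CPM in PLC/PRF/5 lactate libraries, against 465 and 470 CPM in PLC/PRF/5 control libraries, a log2 fold change of -0.22 ± 0.51 (SE; edgeR adjusted p = 1). Untreated PLC/PRF/5 exceeded untreated HLF by 9.34 ± 0.78 on the log2 scale for VTN (SE; edgeR adjusted p = 3.04e-06), so both strands of this stretch were high in the same line. The remaining genes that overlap SARM1, which are SEBOX and AC002094.3 to AC002094.5, had between 0 and 10 counts over all libraries and were not tested.

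None of the 9 enzyme genes passed the test for lactate in any line. By edgeR's quasi-likelihood test with Benjamini-Hochberg adjustment over all 18355 genes, 0 of 9 were called in PLC/PRF/5, in HLF and in SNU475, where 0% of all genes were called in each line. For the mean effect of the 3 lines 0 of 9 were called, against 0.42% of all genes (0.305% higher and 0.114% lower), and for the interaction of lactate with line 0 of 9, against 0%. Unadjusted p-values fell under 0.05 for 0 of the 9 in PLC/PRF/5, 2 in HLF (NAPRT and NNMT), 0 in SNU475, 0 for the mean effect and 1 for the interaction (NAPRT). Over all genes that number was 1087 in PLC/PRF/5, 1152 in HLF, 2127 in SNU475, 2903 for the mean effect and 644 for the interaction. DESeq2 and limma also called 0 of the 9 in each of these contrasts. Over all genes DESeq2 called 91 in PLC/PRF/5, 42 in HLF, 274 in SNU475, 947 for the mean effect and 9 for the interaction. In the same order limma called 1, 1, 3, 9 and 2. A fit with a block for each library number within each line, which pairs lactate with control, also called 0 of the 9. Over all genes, however, it called 121 in PLC/PRF/5, 3 in HLF, 46 in SNU475 and 6 for the interaction. For the mean effect it called 1268, where the fit without the block called 77. The median log2 fold change of the 9 genes was 0.39 in PLC/PRF/5, -0.20 in HLF and -0.03 in SNU475, beside 0.03, 0 and 0.01 over all genes tested.

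**Figure D2:**
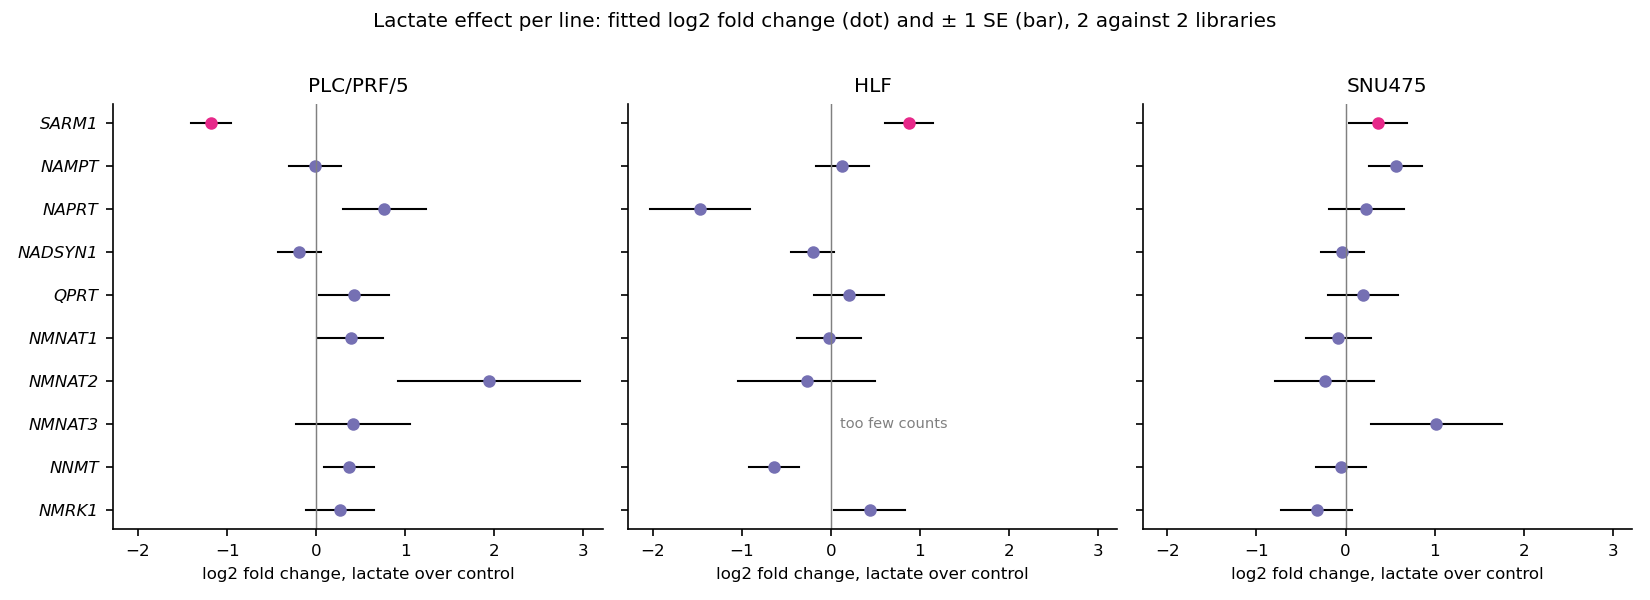
Fitted log2 fold change of lactate over control (dots) with 1 SE to each side (bars) for the 10 genes in each line, 2 against 2 libraries. SARM1 lies at -1.18 in PLC/PRF/5, 0.88 in HLF and 0.36 in SNU475, and the NMNAT3 effect in HLF is left out because it rests on 1 count.

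Lactate and control libraries did not overlap for 8 of the 9 enzyme genes in PLC/PRF/5, 4 in HLF and 0 in SNU475, SARM1 being left out as the gene chosen for its response. The same held for 50.3% of all genes in PLC/PRF/5, 39.6% in HLF and 31.6% in SNU475. In PLC/PRF/5, 7 of the non-overlapping enzyme genes were higher with lactate (NAPRT, QPRT, NMNAT1, NMNAT2, NMNAT3, NNMT and NMRK1), NADSYN1 was lower, and NAMPT overlapped. The share of all genes higher without overlap was not counted, so this direction has no background beside it. Some gaps were small, with nearest libraries at 65.2 against 63.2 CPM for NNMT and 3.14 against 3.04 CPM for NMNAT3. NMNAT2 rests on 10 against 2 counts. In HLF, NAMPT and QPRT were higher without overlap, and NAPRT and NNMT were lower.

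NAMPT, the rate-limiting step of salvage from nicotinamide, differed little with lactate in PLC/PRF/5. It had 110 and 114 CPM in PLC/PRF/5 lactate libraries, against 107 and 118 CPM in control libraries, a log2 fold change of -0.01 ± 0.29 (SE; edgeR adjusted p = 1, 95% interval -0.66 to 0.64). HLF cells had 212 and 185 CPM with lactate, against 182 and 180 CPM in control. In SNU475 it had 218 and 494 CPM with lactate, against 220 and 262 CPM in control, so the log2 fold change of 0.56 ± 0.29 (SE; edgeR adjusted p = 0.489) stood on 1 lactate library. Without that library it was -0.15, and without both SNU475 libraries numbered 2 it was -0.02. Without the other lactate library it was 1.04, with 1 lactate library left in that group. The library with 494 CPM also had 13.9% mitochondrial counts, and the part of that in the result was not tested. NAMPT counts were fractional in 12 libraries, and the pseudogene NAMPTP1 took 3.4% to 5.22% of the counts of both. The opposite-strand entry AC007032.1, which shares 786 exonic bases with NAMPT, had 97 counts over all libraries.

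NMRK1, the riboside kinase, had 7.43 and 8.25 CPM in PLC/PRF/5 lactate libraries, against 6.60 and 6.42 CPM in control libraries. In HLF it had 3.58 and 2.41 CPM with lactate, against 2.63 and 1.79 CPM in control, and in SNU475 3.61 and 2.24 CPM, against 4.22 and 3.11 CPM. Both SNU475 and HLF values overlapped between lactate and control. Within each library number, NMRK1 was higher with lactate in HLF and lower in SNU475.

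NAPRT, which opens the route from nicotinic acid, had effects of opposite sign in PLC/PRF/5 and HLF, but its counts were low in both. In PLC/PRF/5 it had 3.25 and 4.15 CPM with lactate, against 1.64 and 2.69 CPM in control, a log2 fold change of 0.77 ± 0.47 (SE; edgeR adjusted p = 0.936). In HLF it had 0.363 and 0.696 CPM with lactate, against 2.09 and 0.843 CPM in control, a log2 fold change of -1.47 ± 0.56 (SE; edgeR adjusted p = 0.766) on 23 against 58 counts. The PLC/PRF/5 effect minus the HLF effect was 2.23 ± 0.73, and the interaction over the 3 lines did not pass (edgeR adjusted p = 1). In SNU475, where NAPRT was abundant, it had 48.8 and 25.8 CPM with lactate, against 37.2 and 26.2 CPM in control. NAPRT lies at chr8:143574785-143578649 on the minus strand and shares 292 exonic bases with the opposite-strand entry AC067930.6 (ENSG00000279605) and 855 with AC067930.5, which had 0 counts.

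NADSYN1, which completes NAD on that route, had group means between 21.2 and 29.3 CPM, while the SNU475 libraries differed within each group. It had 20.9 and 21.5 CPM in PLC/PRF/5 lactate libraries, against 24.8 and 23.4 CPM in control libraries (log2 fold change -0.19 ± 0.24; edgeR adjusted p = 1, 95% interval -0.72 to 0.34). HLF cells had 23.2 and 26.6 CPM with lactate, against 31.3 and 25.9 CPM in control, and in SNU475 34.5 and 22.7 CPM, against 32.96 and 25.7 CPM.

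QPRT, the last step of the kynurenine route, had 179 and 204 CPM in PLC/PRF/5 lactate libraries, against 137 and 148 CPM in control libraries, a log2 fold change of 0.42 ± 0.39 (SE; edgeR adjusted p = 0.975). HLF cells had 102 and 110 CPM with lactate, against 96.3 and 88.1 CPM in control. In SNU475 the values differed more between library numbers than between treatments, as QPRT had 179 and 78.9 CPM with lactate, against 159 and 65.4 CPM in control. Within each library number the lactate value was the higher. The libraries numbered 1 were high and those numbered 2 low in both groups, as for NADSYN1 and NAPRT, and the libraries numbered 2 were those with the larger mitochondrial share.

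NNMT, the nicotinamide methyltransferase, had 65.2 and 89.1 CPM in PLC/PRF/5 lactate libraries, against 63.2 and 55.9 CPM in control libraries, a log2 fold change of 0.37 ± 0.28 (SE; edgeR adjusted p = 0.959). In HLF it had 108 and 118 CPM with lactate, against 205 and 147 CPM in control, a log2 fold change of -0.64 ± 0.28 (SE; edgeR adjusted p = 0.787). In SNU475 it had 109 and 164 CPM with lactate, against 108 and 174 CPM in control. The PLC/PRF/5 effect minus the HLF effect was 1.02 ± 0.40, and the interaction over the 3 lines did not pass (edgeR adjusted p = 1). NNMT had the opposite sign to SARM1 in both of these lines, on values from the same libraries.

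**Figure D3:**
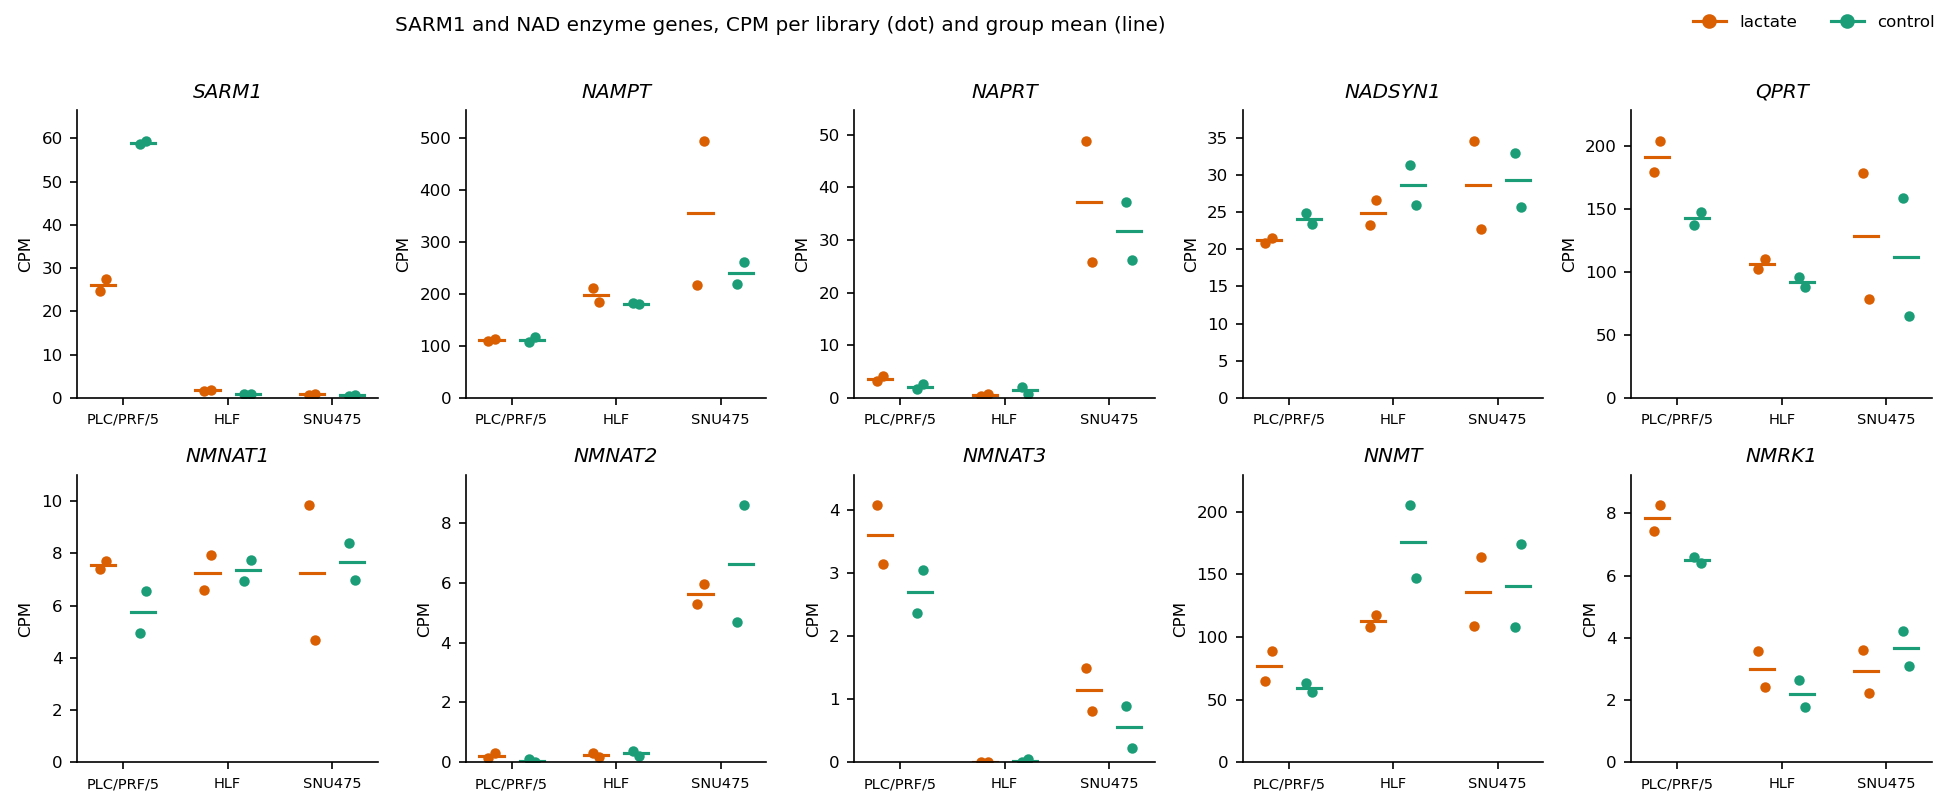
CPM of the 10 genes in each library (dots) with the group mean (line), lactate and control in PLC/PRF/5, HLF and SNU475; each panel has its own axis from 0. SARM1, NMNAT3 and NMRK1 were highest in PLC/PRF/5, and NAPRT and NMNAT2 in SNU475.

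The 3 NMNAT paralogues place the same reaction in different compartments, with NMNAT1 in the nucleus, NMNAT2 at Golgi and cytosolic membranes and NMNAT3 in mitochondria. NMNAT1 had 7.39 and 7.69 CPM in PLC/PRF/5 lactate libraries, against 4.96 and 6.57 CPM in control libraries, a log2 fold change of 0.39 ± 0.36 (SE; edgeR adjusted p = 0.975). NMNAT3 had 4.06 and 3.14 CPM with lactate there, against 2.37 and 3.04 CPM in control. NMNAT2 had 10 counts in the PLC/PRF/5 lactate libraries together, against 2 in the control libraries, a ratio of 4.15 with a 95% exact interval of 0.884 to 38.9 that covers counting error only. In HLF, NMNAT3 had 0 counts with lactate against 1 in control, and NMNAT2 had 11 against 12.

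In SNU475, NMNAT2, the paralogue that holds SARM1 in check in neurons, had 5.29 and 5.97 CPM with lactate, against 4.67 and 8.57 CPM in control. NMNAT3 there had 1.49 and 0.814 CPM with lactate, against 0.900 and 0.230 CPM in control, on 36 against 20 counts. NMNAT1 in SNU475 had 9.83 and 4.68 CPM, against 8.38 and 6.96 CPM. Lactate and control values overlapped for each of these genes. Within each library number NMNAT3 was higher with lactate, while NMNAT2 and NMNAT1 changed direction between numbers.

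The makeup of the NMNAT family is given per length first, with the limit that effective lengths varied 10.6-fold for NMNAT2 and 6.27-fold for NMNAT3 between libraries. NMNAT3 made up 47.6% and 39.8% of the summed NMNAT TPM in PLC/PRF/5 lactate libraries, and 55.5% and 42% in PLC/PRF/5 control libraries. NMNAT1 made up 85.6% and 97.3% in HLF lactate libraries and 83.2% and 98.4% in HLF control libraries. In SNU475, NMNAT2 held 35.1% and 22.7% with lactate, and 26.2% and 32.2% in control. The summed NMNAT TPM stayed between 4.32 and 8.7 in the 12 libraries. As shares of the summed counts, which use no length, NMNAT3 made up 35% and 28.2% in PLC/PRF/5 lactate libraries and 31.8% and 31.6% in PLC/PRF/5 control libraries. NMNAT2 made up 31.8% and 52.1% in SNU475 lactate libraries and 33.5% and 54.4% in SNU475 control libraries, and at most 5.32% in any HLF or PLC/PRF/5 library.

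**Figure D4:**
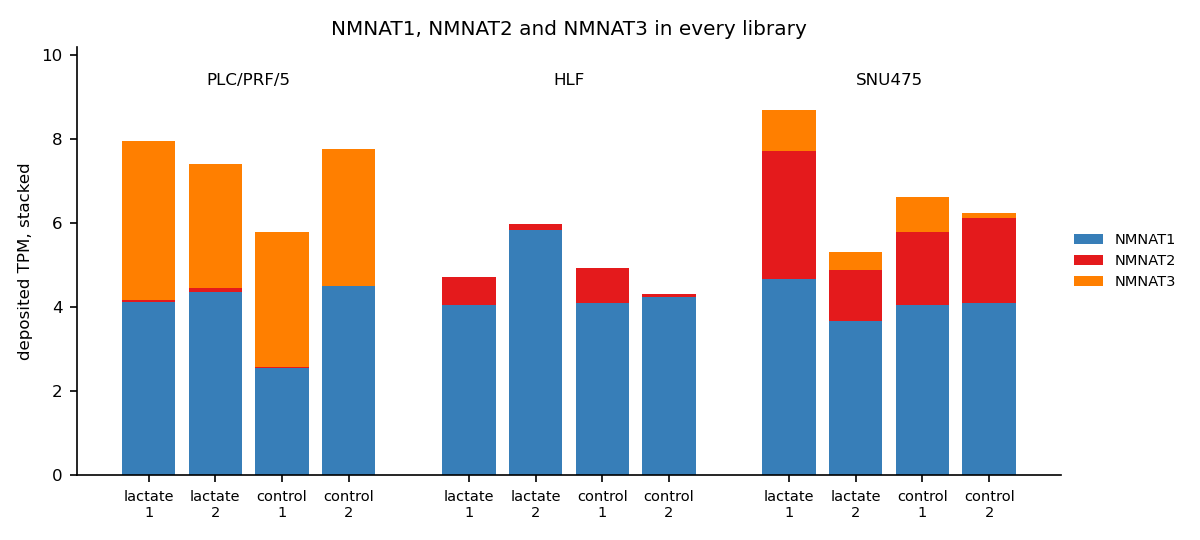
Deposited TPM of NMNAT1, NMNAT2 and NMNAT3, stacked, in every library. The NMNAT3 part is 39.8% to 55.5% of the bar in PLC/PRF/5 and at most 0.231% in HLF, and the NMNAT2 part is 22.7% to 35.1% in SNU475.

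Untreated lines differed in several of the enzyme genes, with shares called near those over all genes. Untreated PLC/PRF/5 against untreated HLF gave 3 of 9 called, beside 43% of all genes, with 2 higher (21.7% of all genes) and 1 lower (21.3%). Untreated PLC/PRF/5 against untreated SNU475 gave 5 of 9 called, beside 48.7% of all genes, with 1 higher (22.4%) and 4 lower (26.3%). Untreated HLF against untreated SNU475 gave 3 of 9 called, beside 39% of all genes, with 0 higher (17.2%) and 3 lower (21.9%). With these few genes, the counts do not set the enzymes apart from the rest. The pairs share their control libraries, so their calls are not independent.

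NMNAT3 was called in each pair of lines. It had 103 counts in untreated PLC/PRF/5 against 1 in untreated HLF, a ratio of 106 with a 95% exact interval of 18.7 to 4250 for counting error (edgeR adjusted p = 6.31e-04). PLC/PRF/5 exceeded SNU475 by 2.24 ± 0.72 on the log2 scale (SE; edgeR adjusted p = 0.0246), a call lost without SNU475 control 2 (adjusted p = 0.125), PLC/PRF/5 control 1 (0.0597) or PLC/PRF/5 control 2 (0.106). In HLF it had 1 count against 20 in SNU475, a ratio of 0.045 with an interval of 0.00108 to 0.281 (edgeR adjusted p = 0.0143). That NMNAT3 call was lost without HLF control 1 (adjusted p = 0.0873), without SNU475 control 1 (0.115) and by limma on log2 TPM (0.106).

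NMNAT2 was highest in SNU475 among the untreated lines. It was not the main paralogue there by TPM, as NMNAT1 made up 61.2% and 65.9% of the summed NMNAT TPM in SNU475 control libraries. By counts NMNAT1 made up 60.1% and 44.2% in the same libraries. Untreated PLC/PRF/5 had 2 counts and untreated SNU475 232, a ratio of 0.00801 with a 95% exact interval of 9.65e-04 to 0.0293 for counting error (edgeR adjusted p = 7.16e-05). Untreated HLF was lower than SNU475, with a log2 fold change of -4.41 ± 0.69 (SE; edgeR adjusted p = 4.71e-04). Between PLC/PRF/5 and HLF the counts were 2 against 12 and the difference was not called (edgeR adjusted p = 0.0745).

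NAPRT was also highest in SNU475 among the untreated lines. It had 2.16 ± 0.74 CPM in PLC/PRF/5, 1.47 ± 0.88 CPM in HLF and 31.7 ± 7.7 CPM in SNU475 (SD, n = 2 each). The log2 fold change was -3.87 ± 0.49 for PLC/PRF/5 over SNU475 (SE; edgeR adjusted p = 7.27e-05) and -4.42 ± 0.51 for HLF over SNU475 (adjusted p = 5.21e-05). PLC/PRF/5 and HLF did not differ past the threshold (log2 fold change 0.56 ± 0.50; edgeR adjusted p = 0.397).

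NNMT was lower in untreated PLC/PRF/5, at 59.5 ± 5.2 CPM, than in untreated HLF at 176 ± 41 CPM and untreated SNU475 at 141 ± 46 CPM (SD, n = 2 each). The log2 fold change was -1.56 ± 0.29 over HLF (SE; edgeR adjusted p = 0.00107) and -1.24 ± 0.28 over SNU475 (adjusted p = 0.00386). NAMPT was lower in PLC/PRF/5 than in SNU475, with a log2 fold change of -1.10 ± 0.30 (SE; edgeR adjusted p = 0.0101). That call was lost without SNU475 control 2 (adjusted p = 0.0524) or PLC/PRF/5 control 1 (0.0687), and by limma on log2 TPM (0.148). Against HLF the NAMPT difference was -0.69 ± 0.30 and did not pass (edgeR adjusted p = 0.0823).

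NMRK1 was higher in untreated PLC/PRF/5, at 6.51 ± 0.12 CPM, than in untreated HLF at 2.21 ± 0.60 CPM (SD, n = 2 each). The log2 fold change was 1.55 ± 0.40 (SE; edgeR adjusted p = 0.00862), and without HLF control 2 it was no longer called (adjusted p = 0.0666). Against SNU475, at 3.66 ± 0.79 CPM, it was 0.83 ± 0.39 and did not pass (edgeR adjusted p = 0.1), although limma on log2 TPM called it (adjusted p = 0.00722). NMNAT3 shares 80 exonic bases with the opposite-strand entry AC097103.2, which was called in no contrast. Genes that overlap NADSYN1, NMNAT1, NMNAT2 and NNMT had 0 to 4 counts over all libraries, and AC009086.2, which overlaps QPRT, was not analysed here.

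NADSYN1, QPRT and NMNAT1 were called in no pair of untreated lines. QPRT had 142.8 ± 7.6 CPM in PLC/PRF/5, 92.2 ± 5.8 CPM in HLF and 112 ± 66 CPM in SNU475.

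**Figure D5:**
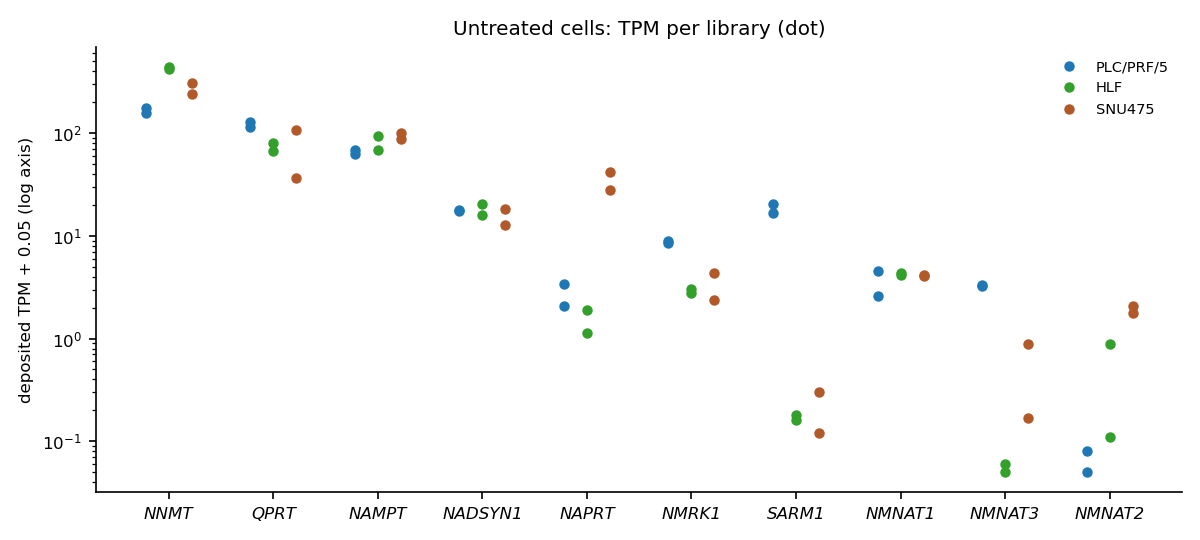
Deposited TPM plus 0.05, on a log axis, of the 10 genes in the 2 control libraries of PLC/PRF/5, HLF and SNU475, ordered by mean TPM over all 12 libraries. SARM1 lies at 16.6 and 20.4 TPM in PLC/PRF/5 and under 1 TPM in the other lines.

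Compared per length, the mean TPM over the 12 libraries was highest for NNMT at 279, followed by QPRT at 104 and NAMPT at 92.4. The order depends on the line and the library. By group mean NAMPT exceeded QPRT in each group of HLF and SNU475, at 81.3 against 73.3 TPM in HLF control cells, for example. In single libraries QPRT was the higher in SNU475 control 1 (106.6 against 99.3 TPM), SNU475 lactate 1 (134.8 against 106.1) and HLF lactate 2 (99.9 against 92.1). NAMPT was the higher in the other libraries of these lines. NADSYN1 had 17.1, NAPRT 14.5 (median 4.59, the high values being those of SNU475) and NMRK1 5.51. SARM1 averaged 4.96 TPM, almost all of it from PLC/PRF/5, next to NMNAT1 at 4.19, NMNAT3 at 1.3 and NMNAT2 at 0.826. In untreated PLC/PRF/5, SARM1 at 18.5 ± 2.7 TPM did not differ beyond its spread from NADSYN1 at 17.5 ± 0.42 TPM (SD, n = 2 each).

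The enzymes that use NAD as a substrate, a list of 18 genes all tested, had 0 calls for lactate in each line, for the mean effect and for the interaction. There was 1 unadjusted p under 0.05 (BST1, interaction), beside 644 of all 18355 genes in the interaction. Between untreated PLC/PRF/5 and HLF 5 of 18 were called, 1 higher and 4 lower, beside 43% of all genes. PARP10, a mono-ADP-ribosyltransferase, had 0.746 to 1.86 CPM in PLC/PRF/5 against 38.6 to 38.9 CPM in HLF (log2 fold change -4.91 ± 0.55; edgeR adjusted p = 3.1e-05). PARP14 (-1.64 ± 0.50) and PARP3 (-1.01 ± 0.34) were lower too, and TNKS, a tankyrase, was higher (0.67 ± 0.23). Between PLC/PRF/5 and SNU475 6 of 18 were called, 2 higher and 4 lower, beside 48.7% of all genes. PARP10 was again lower (-5.00 ± 0.55), with SIRT2 (-0.83 ± 0.21), and TNKS was higher (1.34 ± 0.23).

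CD38, the main NAD glycohydrolase of immune cells, had 0 counts in untreated PLC/PRF/5 and 24 in untreated SNU475, at least 8.61-fold lower in PLC/PRF/5 against a floor of 3 counts over the group. Untreated HLF had 2 CD38 counts, a ratio to SNU475 of 0.0749 with a 95% exact interval of 0.00858 to 0.302 for counting error. Between HLF and SNU475 5 of the 18 enzymes were called, 3 higher and 2 lower, beside 39% of all genes, with PARP3 (1.58 ± 0.35), TNKS (0.68 ± 0.23) and PARP2 (0.65 ± 0.23) higher and CD38 and SIRT5 lower. PARP1, the main consumer after DNA damage, was not called in any contrast and ran from 190 to 273 CPM over the 12 libraries. SIRT1, a nuclear deacylase, had log2 fold changes with lactate of -0.48 ± 0.33 in PLC/PRF/5, 0.20 ± 0.33 in HLF and 0.59 ± 0.33 in SNU475, and was not called (edgeR adjusted p = 0.959, 0.988 and 0.523).

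The kynurenine route, of which 6 of 8 genes were tested, also had 0 calls for lactate in each contrast. Unadjusted p-values were under 0.05 for KMO in HLF (5 against 0 counts), KYNU in the mean effect, and KMO and TDO2 in the interaction. Of all 18355 genes, 1152 had such a p-value in HLF, 2903 for the mean effect and 644 for the interaction. Between untreated lines, IDO1, an enzyme of the first step, had 0 counts in PLC/PRF/5, 25 in HLF and 242 in SNU475, so PLC/PRF/5 was at least 8.06-fold below HLF and at least 86.8-fold below SNU475. KMO had 0 counts in PLC/PRF/5 and HLF and 92 in SNU475, at least 33-fold lower in PLC/PRF/5 and at least 34.1-fold lower in HLF. TDO2, the liver enzyme of that step, had 8 counts in PLC/PRF/5 against 260 in HLF (log2 fold change -4.93 ± 0.73; edgeR adjusted p = 2.46e-04). ACMSD, which diverts the route away from QPRT, had 45 counts in PLC/PRF/5 and 0 in HLF, at least 15.5-fold higher in PLC/PRF/5. In all, 3 of 6 were called in PLC/PRF/5 against HLF (1 higher, 2 lower; 43% of all genes), 5 against SNU475 (1 higher, 4 lower; 48.7%) and 3 in HLF against SNU475 (1 higher, 2 lower; 39%). AFMID, which acts after IDO1 and TDO2, was called in no pair of lines, and KYNU in PLC/PRF/5 against SNU475 alone.

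Of 13 genes for NAD phosphorylation, transport and repair, 10 were tested and 0 were called for lactate in each contrast. Unadjusted p-values were under 0.05 for NADK2 in HLF, for PNP and NNT in SNU475 and for the same 2 in the interaction. Of all 18355 genes, 1152 had such a p-value in HLF, 2127 in SNU475 and 644 in the interaction. The PNP value in SNU475 stood on 1 lactate library, with 50.4 and 133 CPM with lactate, against 44.9 and 51.5 CPM in control. NNT, the mitochondrial transhydrogenase that passes electrons between NADH and NADPH, had 79.5 to 86.0 CPM in untreated PLC/PRF/5 against 8.80 to 9.96 CPM in untreated HLF (log2 fold change 3.14 ± 0.21; edgeR adjusted p = 4.95e-07). HLF was also below SNU475 (-2.39 ± 0.20). AOX1, an oxidase that acts on methylnicotinamide, the product of NNMT, was lower in PLC/PRF/5 than in HLF (-6.03 ± 0.44) and SNU475 (-5.22 ± 0.44). NADK2, the mitochondrial NAD kinase, was higher in PLC/PRF/5 than in HLF (1.69 ± 0.24), and NT5E, a surface nucleotidase, was lower (-1.25 ± 0.34). NADK, the cytosolic kinase, was not called in any contrast. The calls numbered 5 of 10 for PLC/PRF/5 against HLF (2 higher, 3 lower; 43% of all genes), 4 against SNU475 (3 higher, 1 lower; 48.7%) and 4 for HLF against SNU475 (2 higher, 2 lower; 39%).

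Of 12 partners of SARM1 in axon loss and adaptors with a TIR domain, all tested, 0 were called for lactate in each contrast. Unadjusted p-values under 0.05 were found for TICAM2 in HLF, MAPK10 in PLC/PRF/5 (5 against 0 counts) and TICAM1 in SNU475. They were also found for MAPK10 and MYD88 in the mean effect and MAPK10 in the interaction. Of all 18355 genes, 1152 had such a p-value in HLF, 1087 in PLC/PRF/5 and 2127 in SNU475. The mean effect had 2903 and the interaction 644. MAPK10, a neuronal JNK, had 0 counts in untreated PLC/PRF/5, at least 16.4-fold below HLF and at least 54.5-fold below SNU475. MAP3K12, the DLK kinase, was lower in PLC/PRF/5 than in HLF (log2 fold change -2.27 ± 0.42; edgeR adjusted p = 0.0011), and MAPK9 was higher (0.88 ± 0.17). TICAM2, a TIR adaptor, was lower in PLC/PRF/5 than in HLF (-3.99 ± 0.88) and SNU475 (-4.67 ± 0.90), and MYCBP2, a ligase that limits NMNAT2 in neurons, was higher than in SNU475 (0.96 ± 0.28). MAP2K4 was lower in HLF than in SNU475 (-1.0 ± 0.23). The calls numbered 4 of 12 for PLC/PRF/5 against HLF (1 higher, 3 lower; 43% of all genes), 4 against SNU475 (2 higher, 2 lower; 48.7%) and 3 for HLF against SNU475 (1 higher, 2 lower; 39%).

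A search over 12458 protein-coding genes of mean CPM 2 or more was made for likeness to SARM1. Those whose log2 CPM followed SARM1 most closely over the 12 libraries were FGFR4 (Pearson r = 0.987), PDSS2 (0.987), FAM110C (0.984), APCS (0.984) and TRIM24 (0.983). The 12 points share 3 lines, and this measure mostly records which genes were high in PLC/PRF/5. FGFR4, a receptor for bile acid signalling in hepatocytes, averaged 635.6 CPM in PLC/PRF/5 lactate libraries and 596 CPM in PLC/PRF/5 control libraries, and did not share the lower level of SARM1 with lactate. Of the enzyme genes, NMRK1 was most like SARM1 on this measure (0.836), and NNMT (-0.858) and NAMPT (-0.808) were most unlike it.

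After the mean of each line was subtracted, the genes most like SARM1 were OSR2 (r = 0.851), POMK (0.836), ZNF619 (0.832), TMEM26 (0.822) and FZD4 (0.821). POMK had 88.4 ± 0.49 CPM in PLC/PRF/5 lactate libraries against 117 ± 0.22 CPM in control libraries, and 36.3 ± 1.6 CPM in HLF lactate libraries against 35.5 ± 3.5 CPM in HLF control libraries (SD, n = 2 each). FZD4 had 55.0 ± 5.9 CPM with lactate in PLC/PRF/5 against 81.7 ± 5.2 CPM in control, and 8.33 ± 2.5 CPM against 5.29 ± 0.40 CPM in HLF. The enzyme genes lay between -0.6 (NAPRT) and 0.248 (NAMPT) on this measure, and these values are descriptions over 12 libraries that were searched for likeness.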

How the data were processed

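Total RNA was sequenced. Per the file headers, the authors deposited expected counts, TPM and effective lengths per gene and library. FastQC, STAR, RSEM and DESeq2 appear, with no version, in the submitters' processing notes, beside mouse builds; all 62710 genes carry human Ensembl IDs, while for annotation and strand setting the sources used here give nothing. Coordinates are from GENCODE 29 (GRCh38).

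Y copies (47 rows) were added to their X copies. Expected counts were rounded and genes filtered by filterByExpr, leaving 18355. edgeR 4.0.16 (R 4.3.3; TMM factors 0.794 to 1.165, robust quasi-likelihood, 6 residual degrees of freedom, Benjamini-Hochberg, threshold 0.05) was fitted to 12 libraries as 6 groups, and was tested on simulated data. The biological coefficient of variation was 0.26. Alternatives used DESeq2 1.42.0 and limma 3.58.1 (log2 TPM plus 0.5).

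The genes and lists were chosen with earlier results of these data known. Named were all 10 genes, up to 4 called genes with the smallest adjusted p per list and contrast, CD38, PARP1, SIRT1, NADK, overlapping genes, and the 5 genes most like SARM1 per measure. Replicate numbers come from the titles: deviations of same-numbered libraries correlated at 0.132 in PLC/PRF/5, 0.101 in HLF and 0.446 in SNU475, all over 0.1, which counts as pairing. Both PLC/PRF/5 libraries numbered 2, lactate and control, carry another number in the deposited names. The main fit has no block, so it leaves this pairing out, as do the counts of genes without overlap. The fit with the block is an alternative. Precision is limited by 2 libraries a group. Exact intervals of count ratios cover counting error only, and intervals of log2 fold changes come from the fit's SE.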

Additional observations from a re-analysis of the deposited data

Results flagged for a closer look

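The lactate effect of SARM1 differed in sign between lines, with every lactate library on one side of the controls in PLC/PRF/5 and on the other in HLF and SNU475. In SNU475 this rests on 26 against 23 SARM1 counts, with a log2 fold change of 0.36 ± 0.32 (SE). The PLC/PRF/5 effect minus the HLF effect was -2.06 and the PLC/PRF/5 effect minus the SNU475 effect was -1.54 on the log2 scale; these differences were not tested, because the gene was chosen for them. NAPRT and NNMT moved the other way round, all lactate libraries being above the controls in PLC/PRF/5 and below them in HLF. The PLC/PRF/5 effect minus the HLF effect was 2.23 for NAPRT and 1.02 for NNMT, and the interaction over the 3 lines was not called for either (edgeR adjusted p = 1 for both). In either direction, lactate and control libraries did not overlap for 50.3% of all genes in PLC/PRF/5, 39.6% in HLF and 31.6% in SNU475. The share of all genes separated in opposite directions between lines was not counted.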

How the results depend on the processing

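For the 9 enzyme genes, the count of lactate calls was 0 in each contrast under relative log expression size factors, no low-count filter, DESeq2, limma on log2 TPM and the replicate block, which also gave 0; the block was run for the lactate contrasts, the mean effect and the interaction, and changed no other call there for these genes. Leaving out a single library leaves 1 library in its group, and lactate calls from those fits are not read here. The NAMPT effects in SNU475 under those fits are given below as sizes only. For untreated PLC/PRF/5 against HLF the count was 5 without the filter, where NAMPT and QPRT were added to the same 3 genes. Over all genes 7990 were called there, beside 7888 with the filter. Fits without both SNU475 libraries numbered 2, or without a single library, leave a group of 1 library. They moved the calls of this pair both ways. By limma on log2 TPM NNMT took the place of NMNAT3 for untreated HLF against SNU475, and NMRK1 that of NAMPT for untreated PLC/PRF/5 against SNU475. For untreated HLF against SNU475 it was 5 without those SNU475 libraries (QPRT and NNMT added) and 2 to 4 by single libraries. For untreated PLC/PRF/5 against SNU475 single libraries gave 3 to 6, with 3 without SNU475 control 2 or PLC/PRF/5 control 1. NAMPT with lactate in SNU475 turned to -0.0171 without both libraries numbered 2, and ran from -0.151 to 1.04 by single libraries. With single libraries left out, the SARM1 log2 fold change for lactate ran from -1.26 to -1.11 in PLC/PRF/5. It ran from 0.775 to 1.02 in HLF and from 0.173 to 0.573 in SNU475. Its sign could hardly turn, because lactate and control libraries did not overlap in any line. The gene was chosen for these values, so the ranges are a description. On log2 TPM plus 0.5 the SARM1 log2 fold change for lactate was 0.894 in SNU475. Its untreated differences on that scale were 4.93 for PLC/PRF/5 over HLF, 4.85 over SNU475 and -0.0768 for HLF over SNU475. TPM takes in the unstable effective lengths. The causes of the other shifts were not tested. Low counts limit SARM1 outside PLC/PRF/5, NMNAT2 outside SNU475 and NMNAT3 in HLF.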
